A study of Cricetulus griseus with 24 samples.

Results

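The CREB family and its coactivators were followed through 7 genes, found by symbol among the 28037 genes of the deposited count table. They were the transcription factors Creb1 (gene 100761582), Crem (100767867) and Atf1 (100773050), the CREB-regulated coactivators Crtc1 (100766676), Crtc2 (100751848) and Crtc3 (100751622), and the histone acetyltransferase Ep300 (100762260), which encodes p300. Crebbp, the gene of the related acetyltransferase CBP, was chosen with them and was not analysed here. All 7 genes had counts in every culture and passed the filter on low counts in every comparison. They were chosen by symbol, because the study examined CREB1 at the promoter that drives the antibody genes. The study came to CREB1 in part through a regulator score computed from its own expression differences between A1 and A0. The choice is therefore not independent of these data.

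CREB1, CREM and ATF1 are closely related basic leucine zipper (bZIP) proteins that dimerize, bind the cAMP response element in promoters and are activated when protein kinase A or other kinases phosphorylate them. Phosphorylated CREB recruits CBP and p300, which acetylate histones and open chromatin. CRTC proteins are kept in the cytoplasm by salt-inducible kinases, enter the nucleus after calcineurin removes their phosphates and join CREB at its bZIP domain. The cytomegalovirus promoter, widely used to drive transgenes in Chinese hamster ovary (CHO) cells, carries cAMP response elements. Phosphorylation, localization and promoter binding are properties of the proteins, whereas the values given here are mRNA counts.

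The study compared 3 CHO cell lines, each a single line, at exponential and stationary growth phase. A0 is a low-producing DG44 line that carries a plasmid with an IgG heavy chain and a plasmid with the light chain and neomycin phosphotransferase, and A1 is its high-producing progeny after stepwise selection in methotrexate. CHO-S is a line that makes no antibody and served as a negative control, and its samples are titled NDST, which the labels do not spell out. There were 4 A0 cultures, 3 A1 cultures and 3 CHO-S cultures at each phase, all bulk suspension cultures, so that fewer cells with an mRNA and less of it per cell cannot be told apart. The 8 A0 exponential libraries carried 4 culture numbers and were summed to 4 cultures. The added libraries are titled RLT for cultures 1 and 2 and Duplicate for cultures 3 and 4, which the labels do not explain.

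The 24 libraries held 1038026 to 14652646 counts on genes (median 12166034). CHO-S stationary culture 1 stood apart with 1038026 counts and 32.8% of its reads outside genes, where the other libraries had at least 6532373 counts and 11.9% to 18.4%. The tests of the 7 genes that rest on this culture are given with it, and also without it where that changes a call. The 7 genes had 31 to 241 counts in it, so that its Creb1 level of 112 CPM (normalized counts relative to library size) had a 95% exact Poisson interval of 92.4 to 136, which covers counting error only. The CHO cell markers Vim, Lgals1 and Actb summed to 3025 to 7948 CPM over all cultures, and 5 markers of other cell types (Ptprc, Cd3e, Pecam1, Alb and Epcam) to no more than 7.72 CPM, with no count of Ptprc in A0 stationary or CHO-S cultures and none of Cd3e in A1 cultures. At stationary phase the sum of the CHO markers was lower in A0 (3389 to 4242 CPM against 5367 to 6403) and in A1 (3548 to 4083 against 5066 to 5764). In CHO-S it spread on both sides of the exponential cultures (3025 to 7948 against 6649 to 6764). The markers of other cell types went from 2.59 to 3.16 CPM to 5.16 to 5.55 CPM in A1, and from 1.71 to 2.51 CPM to 2.06 to 7.72 CPM in CHO-S. The part of either list in the results was not tested.

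Between exponential and stationary phase Crtc2 mRNA fell in A0, to 62.1 CPM from 109, and in A1, to 84.6 from 99.3, and Ep300 fell in A0 while Crtc1 and Crtc3 rose in A1. An adjusted p under 0.05 in edgeR's quasi-likelihood test was called a change. By this rule 2 of the 7 genes changed in A0, where 37.7% of the 20267 genes tested did, and 3 of 7 changed in A1, against 33.4% of 18548. These shares of all genes, and those below, include genes with very few counts. With a stricter count filter (filterByExpr of edgeR) 3 of 7 were called in A0, against 7293 of 13682 genes. In A1 that filter called 3 of 7, against 6124 of 12988. In CHO-S 0 of 7 were called by edgeR, against 13.3% of 17367 genes, with 2 at an unadjusted p under 0.05 and 1 called by DESeq2. Without the shallow culture 5 of 7 were called in CHO-S, against 47.7% of 17319 genes. The A0 cultures with the same number deviated together between phases, though exponential cultures 3 and 4 did so more with a culture of another number. A fit with the culture number as a block called 5 of 7 in A0, the others being Creb1, Crem and Crtc3, against 42.7% of all genes. DESeq2 called Crem, Crtc2 and Crtc3 in A0, and not Ep300. The cultures of the 2 phases did not overlap for 2 of 7 genes in A0, 5 of 7 in A1 and 4 of 7 in CHO-S, where that held for 35.8%, 43.1% and 36.4% of all genes. Without the shallow culture none of the 7 genes overlapped in CHO-S, and neither did 61.5% of all genes. The median size of the log2 change over the 7 genes was 0.27 in A0, 0.21 in A1 and 0.28 in CHO-S, below the 0.50, 0.31 and 0.43 of all genes tested. All genes tested include those with 1 count in 2 cultures, whereas the 7 genes had at least 31 counts in every culture. The medians are thus not of genes with like counts, and genes of like counts were not compared.

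**Figure D1:**
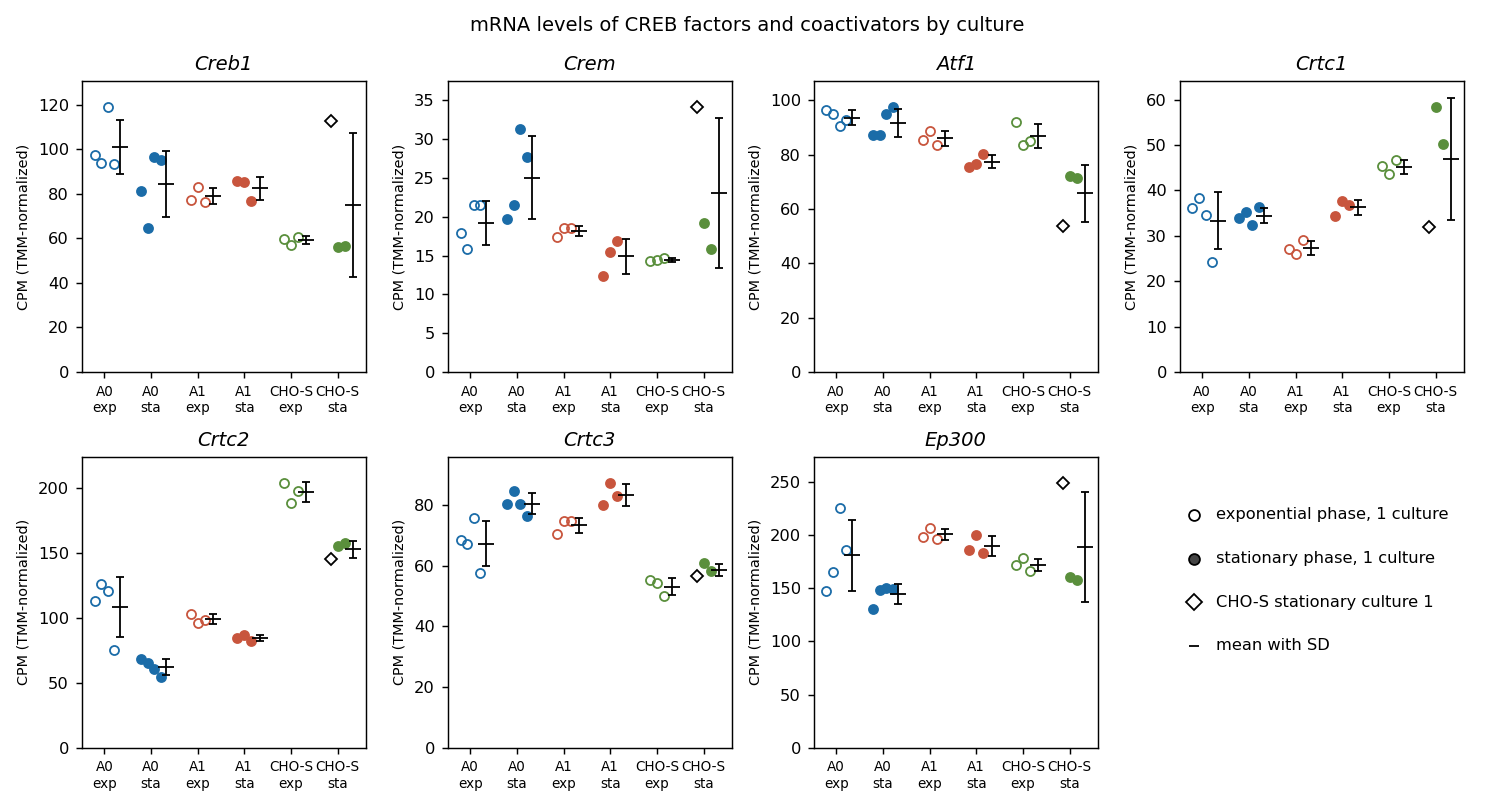
mRNA level (CPM, TMM-normalized, linear axis from 0) of the 7 genes in each culture of the 6 groups, with the mean and SD of each group. Open circles are exponential and filled circles stationary cultures, and the diamond is CHO-S stationary culture 1, which lies far from the 2 other cultures of its group for Creb1, Crem, Atf1, Crtc1 and Ep300. Crtc2 was highest in CHO-S, at 197 CPM on average at exponential phase.

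Creb1, the gene of the factor that gives the family its name, was at 97.6, 94.0, 119 and 93.3 CPM in the A0 exponential cultures and at 81.1, 64.9, 96.4 and 95.2 CPM in the A0 stationary cultures. Exponential culture 3 was the highest and stationary culture 2 the lowest, and the phases overlapped. The log2 change was -0.27 ± 0.13 (SE, adjusted p = 0.11 from edgeR), and -0.28 ± 0.096 with the culture number as a block (adjusted p = 0.011). It also passed the threshold with A0 cultures 1 and 2 alone (-0.40, adjusted p = 0.020). In A1 the exponential cultures had 77.2, 83.0 and 76.5 CPM and the stationary cultures 85.6, 85.2 and 76.7 CPM. These overlapped too, with a log2 change of 0.081 and a 95% interval of -0.054 to 0.22. CHO-S had 59.8, 57.2 and 60.7 CPM at exponential phase, and 112, 56.1 and 56.6 CPM at stationary phase. The 112 CPM are those of the shallow culture, without which the log2 change went from 0.28 to -0.071 with an interval of -0.20 to 0.058.

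Crem produces activators and, from an internal promoter, the inducible repressor ICER, and the counts per gene do not separate them. In A0 it was at 17.9, 15.8, 21.6 and 21.6 CPM at exponential phase and 19.7, 21.5, 31.3 and 27.7 CPM at stationary phase. Stationary cultures 3 and 4 were above every exponential culture, the others were not. The log2 change was 0.37 ± 0.15 (SE, adjusted p = 0.060 from edgeR), and 0.36 ± 0.11 with the culture number as a block (adjusted p = 0.0035). It also passed without exponential culture 4 (0.44, adjusted p = 0.048), stationary culture 1 (0.48, 0.020) or stationary culture 2 (0.44, 0.044), and under DESeq2, its size factors in edgeR, the stricter count filter of edgeR, a single library per exponential culture and A0 cultures 3 and 4 alone (0.40 to 0.45, adjusted p from 0.030 to 0.042). A1 went the other way, with 17.4, 18.5 and 18.6 CPM at exponential phase and 12.4, 15.5 and 16.8 CPM at stationary phase. The A1 phases did not overlap, and the log2 change was -0.25 ± 0.11 (adjusted p = 0.10), or -0.34 without stationary culture 3 (adjusted p = 0.046). In CHO-S, 14.3, 14.4 and 14.73 CPM stood against 34.1, 19.2 and 15.9 CPM. All stationary CHO-S cultures were above all exponential ones, with a log2 change of 0.42 ± 0.20 (adjusted p = 0.21) that passed the threshold without the shallow culture (0.31 ± 0.11, adjusted p = 0.013).

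Atf1, whose product can pair with CREB1 and CREM, varied least over the 6 groups of the 3 factor genes. A0 had 96.5, 95.05, 90.5 and 92.8 CPM at exponential and 87.5, 87.4, 95.1 and 97.4 CPM at stationary phase, which overlapped (log2 change -0.040, 95% interval -0.22 to 0.14). In A1 it was at 85.4, 88.9 and 83.7 CPM against 75.5, 76.7 and 80.2 CPM. Every A1 stationary culture was below every exponential one, but the log2 change of -0.13 ± 0.064 did not pass the threshold (adjusted p = 0.12 from edgeR). CHO-S had 92.0, 83.6 and 85.0 CPM at exponential and 53.7, 72.3 and 71.4 CPM at stationary phase, with no overlap. There the log2 change was -0.37 ± 0.15 (adjusted p = 0.15) with all cultures and -0.27 ± 0.059 without the shallow one (adjusted p = 5.4e-05).

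Crtc2, the coactivator best known for the response to fasting and glucagon in liver, had the largest phase response of the 7 genes in A0. Its exponential A0 cultures were at 113, 126, 121 and 75.1 CPM and its stationary cultures at 68.4, 65.3, 60.3 and 54.6 CPM. Exponential culture 4 was low, but still above every stationary culture. The log2 change was -0.82 ± 0.14 (SE, adjusted p = 0.00019 from edgeR), and between -0.96 and -0.74 when any 1 culture was left out. In A1 the values were 103, 96.1 and 98.3 CPM against 84.3, 87.2 and 82.3 CPM. These did not overlap either, and the log2 change was -0.21 ± 0.063 (adjusted p = 0.0083), or -0.18 without A1 exponential culture 1 (adjusted p = 0.063). CHO-S was at 204, 189 and 198 CPM at exponential and 146, 156 and 158 CPM at stationary phase, again without overlap. Here the log2 change of -0.36 ± 0.12 had an adjusted p of 0.091, and of 1.0e-08 without the shallow culture, with a change of -0.33 ± 0.049.

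Crtc1, the coactivator best known from neurons, showed its clearest phase response in A1. The A1 exponential cultures had 27.1, 26.0 and 29.0 CPM and the A1 stationary cultures 34.4, 37.7 and 36.7 CPM. These stood well apart, with a log2 change of 0.43 ± 0.086 (SE, adjusted p = 0.00018 from edgeR) that passed the threshold in each of the 10 settings tried. A0 was at 36.2, 38.3, 34.6 and 24.3 CPM and at 34.0, 35.2, 32.3 and 36.3 CPM. Exponential culture 4 was the lowest here as it was for Crtc2, and the log2 change of 0.035 (95% interval -0.24 to 0.31) was -0.083 without it. In CHO-S the exponential cultures had 45.4, 43.6 and 46.6 CPM and the stationary ones 32.0, 58.3 and 50.3 CPM. The 32.0 CPM, from the shallow culture, had a 95% exact Poisson interval of 21.7 to 45.4. The log2 change was 0.11 ± 0.19 (adjusted p = 0.76) with it and 0.28 ± 0.070 without it (adjusted p = 0.00034).

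Crtc3, the remaining member of the coactivator family, had higher means at stationary phase in all 3 lines. A0 had 68.5, 67.1, 75.8 and 57.7 CPM at exponential phase and 80.5, 84.6, 80.4 and 76.3 CPM at stationary phase. The lowest stationary culture was just above the highest exponential one. The log2 change in A0 was 0.25 ± 0.098 (SE, adjusted p = 0.060 from edgeR) and was past the threshold with the block (0.25 ± 0.096, adjusted p = 0.023) and without exponential culture 3 (0.31, adjusted p = 0.029). It also passed under DESeq2, its size factors, the stricter filter and A0 cultures 1 and 2 alone (0.27 to 0.29, adjusted p from 0.018 to 0.037). In A1, 70.4, 74.8 and 74.6 CPM stood against 79.9, 87.2 and 83.0 CPM, a rise of 0.21 ± 0.064 in log2 units (adjusted p = 0.011). It was 0.18 without A1 exponential culture 1 (adjusted p = 0.069) or without stationary culture 2 (adjusted p = 0.058). CHO-S was at 55.1, 54.1 and 50.04 CPM and at 56.8, 60.8 and 58.1 CPM, which did not overlap. The log2 change there was 0.15 ± 0.12 (adjusted p = 0.47) and 0.17 ± 0.066 without the shallow culture (adjusted p = 0.025).

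Ep300, an acetyltransferase used by CREB and by many other transcription factors, was at 147, 165, 225 and 186 CPM in A0 at exponential phase and at 131, 149, 149.8 and 149 CPM at stationary phase. Exponential culture 3 was the highest, and exponential culture 1 lay within the stationary range. In A0 Ep300 fell by 0.33 ± 0.12 in log2 units (SE, edgeR adjusted p = 0.036). This call was lost without exponential culture 3 (-0.21, adjusted p = 0.14) or 4 (-0.31, adjusted p = 0.073), or without stationary culture 1 (-0.28, adjusted p = 0.10), 2, 3 or 4 (-0.35 for each, adjusted p from 0.053 to 0.058). It was also lost under DESeq2 (adjusted p = 0.051), its size factors in edgeR (0.052), the stricter filter (0.057) and A0 cultures 1 and 2 alone (-0.17, adjusted p = 0.19), and held with the block (-0.32 ± 0.094, adjusted p = 0.0024). A1 had 198, 207 and 197 CPM against 186, 199.95 and 183 CPM, which overlapped (log2 change -0.061, 95% interval -0.18 to 0.055). CHO-S had 172, 178 and 167 CPM against 249, 160.3 and 158 CPM. The shallow culture alone was higher, and the log2 change went from 0.13 with it (interval -0.34 to 0.59) to -0.11 without it (adjusted p = 0.058).

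**Figure D2:**
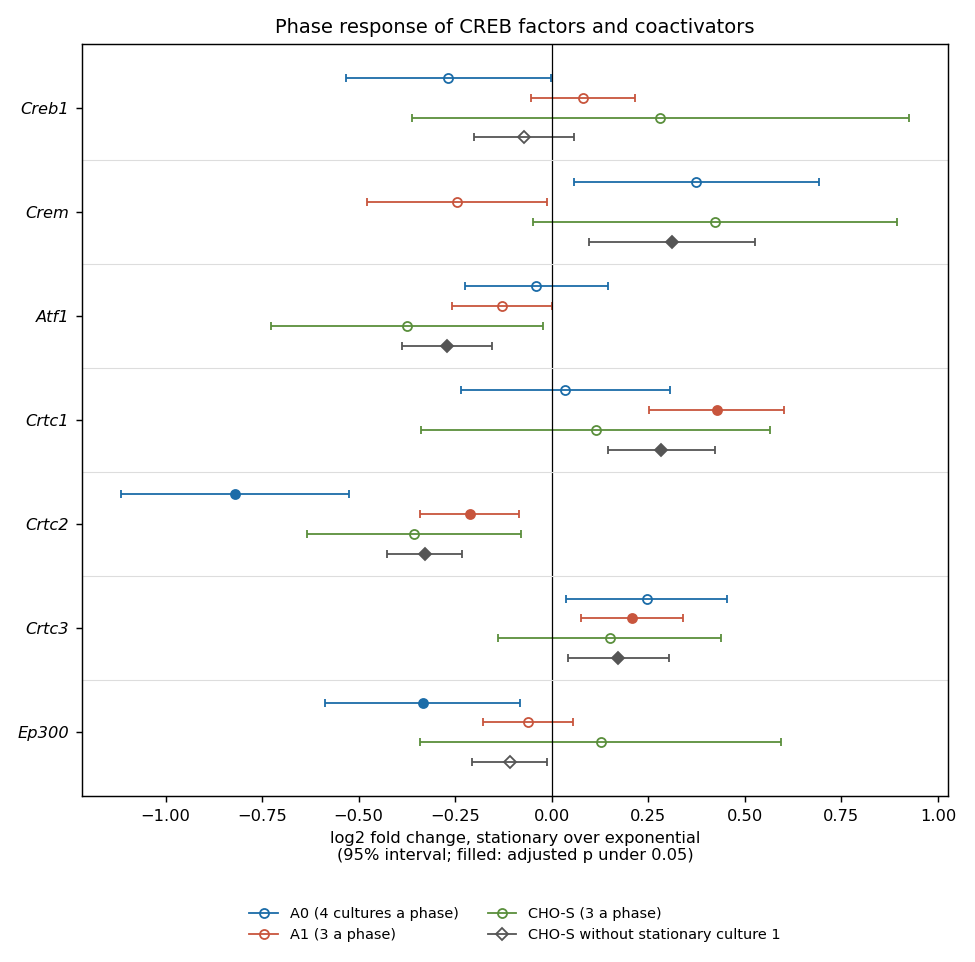
Log2 fold change from exponential to stationary phase of the 7 genes, with 95% intervals, in A0 (4 cultures a phase), A1 (3) and CHO-S (3, and without stationary culture 1). Filled symbols have an adjusted p under 0.05. Crtc2 lay below 0 and Crtc3 above 0 in each fit, while Crem lay above 0 in A0 (0.37) and below 0 in A1 (-0.25).

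Whether the phase response itself differed between lines was tested by the interaction of line and phase. Between A1 and A0 it differed for Crem and Crtc2, 2 of 7 genes against 8.94% of the 20953 genes tested. With the stricter count filter 0 of 7 were called, against 2128 of 13747 genes. The Crem response was lower in A1, with an interaction of -0.67 ± 0.21 in log2 units (SE, edgeR adjusted p = 0.048), since Crem tended up in A0 and down in A1. For Crtc2 the response was 0.57 ± 0.18 higher in A1 (adjusted p = 0.047), since the fall was smaller there. Both lay near the threshold: the stricter count filter of edgeR gave 0.051 for each, and leaving out 1 culture at a time kept the Crem call in 4 of 14 cases, those without A0 exponential culture 3 or 4 or A0 stationary culture 1 or 2, with -0.77 to -0.55 over all 14. It kept the Crtc2 call in 2 of 14, those without A0 exponential culture 4 or A0 stationary culture 1, with 0.49 to 0.71 over all 14. With the culture number as a block the values were -0.67 ± 0.17 (adjusted p = 0.00099) and 0.55 ± 0.13 (adjusted p = 0.00036). The Creb1 difference was 0.31 (95% interval -0.018 to 0.64) and the Ep300 difference 0.23 (interval -0.073 to 0.54), neither called. Creb1 was called with A0 cultures 1 and 2 alone (0.45, adjusted p = 0.0084), and Ep300 with A0 cultures 3 and 4 alone (0.38, adjusted p = 0.041). The Crtc1 difference was 0.35 ± 0.17 (adjusted p = 0.23), and 0.48 ± 0.13 without A0 exponential culture 4 (adjusted p = 0.014). With A0 cultures 1 and 2 alone it was 0.50 (adjusted p = 0.0033).

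Against CHO-S no member's phase response was called different by edgeR, with 0 of 7 genes in A0 against 10.3% of all genes, and 0 of 7 in A1 against 7.60%. At an unadjusted p under 0.05 there was 1 gene in each (Crtc2 in A0 and Crem in A1), and DESeq2 called 0 in both. The Crtc2 difference between A0 and CHO-S was -0.47 ± 0.22 (adjusted p = 0.19), and -0.62 ± 0.17 without A0 exponential culture 4 (adjusted p = 0.023). Without the shallow culture the Crem response differed by -0.57 ± 0.16 (log2, SE) between A1 and CHO-S (adjusted p = 0.0052 from edgeR), the single call among 7 genes where 25.4% of all genes were called. The Crem response in A0 differed from that in CHO-S by 0.13 (95% interval -0.34 to 0.60) in the same setting. The 3 comparisons of phase responses share cultures and are not independent of each other.

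The comparison of levels between lines asks whether methotrexate amplification, or the DG44 background with its transgenes against CHO-S, goes with other levels of the CREB genes. At exponential phase Creb1 was lower in A1 than in A0, 78.9 ± 3.55 CPM (SD, n = 3) against 101 ± 12.05 (n = 4), and was the single gene called of the 7, where 25.9% of 19946 genes were called. Its log2 difference was -0.36 ± 0.10 (SE, adjusted p = 0.016 from edgeR), and every A1 culture was below every A0 culture. The call was lost without A1 exponential culture 1 (-0.34, adjusted p = 0.076) or culture 3 (-0.34, adjusted p = 0.087). Crtc1 had a log2 difference of -0.29 ± 0.14 (adjusted p = 0.15) and Crtc2 of -0.13 ± 0.14 (adjusted p = 0.53). A0 culture 4, low for both, decided these: without it they were -0.41 (adjusted p = 0.0051) and -0.28 (adjusted p = 0.018). The log2 differences of the other 4 genes lay between -0.13 for Atf1 and 0.15 for Ep300, with the widest 95% interval from -0.35 to 0.19, for Crem. The lines did not overlap for Creb1 and Atf1, 2 of 7 genes, against 34.4% of all genes.

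At stationary phase the genes called between A1 and A0 were others, though the Atf1 cultures of the lines did not overlap at either phase. With all cultures the interaction of line and phase was called for Crem and Crtc2 alone. It was not called for Creb1 (adjusted p = 0.26 from edgeR), Atf1 (0.55) or Ep300 (0.39). Crem and Atf1 were lower in A1 and Crtc2 and Ep300 higher, 4 of 7 genes against 33.7% of 19293. Crem was at 14.9 ± 2.28 CPM (SD, n = 3) in A1 and 25.0 ± 5.36 (n = 4) in A0, a log2 difference of -0.75 ± 0.16 (SE, adjusted p = 0.0025 from edgeR). For Atf1 the levels were 77.5 ± 2.45 CPM and 91.8 ± 5.18, and the difference of -0.26 ± 0.075 (adjusted p = 0.017) was not past the threshold without A1 stationary culture 1 or 2, both -0.24 (adjusted p = 0.063 and 0.072). Crtc2 stood at 84.6 ± 2.46 CPM in A1 and 62.1 ± 6.05 in A0, a difference of 0.44 ± 0.085 (adjusted p = 0.0012). Ep300 stood at 190 ± 8.98 CPM and 145 ± 9.36, a difference of 0.38 ± 0.074 (adjusted p = 0.0012). None of these 4 genes overlapped between the lines, where 39.9% of all genes did not. Creb1, the gene called at exponential phase, was at 82.5 ± 5.06 CPM in A1 and 84.4 ± 14.8 in A0, a log2 difference of -0.046 with a 95% interval of -0.29 to 0.20. This value depended on which A0 cultures were used. If A0 was limited to cultures 3 and 4 (96.4 and 95.2 CPM), edgeR called Creb1 lower in A1, at -0.22 (adjusted p = 0.019). If it was limited to cultures 1 and 2 (81.1 and 64.9 CPM), the sign turned to 0.16, which was not called.

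CHO-S differed from both producing lines in most of the 7 genes at exponential phase. In A0 5 of 7 were called, against 49.5% of 19966 genes, and in A1 6 of 7, against 57.2% of 18488. With the stricter count filter of edgeR it was again 5 of 7 in A0, against 9222 of 14147 genes. In A1 it was again 6 of 7, against 9618 of 12962 genes. CHO-S had the highest Crtc2 level, 197 ± 7.70 CPM (SD, n = 3), and Crtc2 was lower by 0.84 ± 0.14 on the log2 scale in A0 and by 0.99 ± 0.049 in A1 (SE, adjusted p = 0.00014 and 3.0e-14 from edgeR). Crtc1 was lower too, by 0.43 ± 0.13 in A0 (adjusted p = 0.015) and 0.73 ± 0.070 in A1 (adjusted p = 4.0e-09). Crtc3, Creb1 and Crem were higher in the producing lines. The log2 differences of Crtc3 were 0.35 ± 0.10 in A0 (adjusted p = 0.0093) and 0.46 ± 0.059 in A1 (adjusted p = 3.8e-07). For Creb1, at 59.2 ± 1.79 CPM in CHO-S, they were 0.78 ± 0.10 (adjusted p = 1.3e-05) and 0.41 ± 0.056 (adjusted p = 1.2e-06). For Crem, at 14.5 ± 0.237 CPM in CHO-S, they were 0.42 ± 0.13 (adjusted p = 0.014) and 0.32 ± 0.092 (adjusted p = 0.0041). Ep300 was higher in A1 by 0.21 ± 0.045 (adjusted p = 0.00024), while Atf1 was called in neither line. Leaving out 1 CHO-S exponential culture ended the A0 calls of Crem (culture 1 or 2, adjusted p = 0.061 and 0.058), Crtc1 (culture 3, 0.051) and Crtc3 (culture 3, 0.067), and no call in A1.

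At stationary phase the same contrast was called for 4 of 7 genes in A0, against 40.0% of 19007 genes, and for 2 of 7 in A1, against 34.8% of 18243. Crtc2 was lower by 1.32 ± 0.14 on the log2 scale in A0 and by 0.88 ± 0.14 in A1 (SE, adjusted p = 5.5e-05 and 0.0017 from edgeR), and passed the threshold in every setting tried. Crtc3 was higher by 0.44 ± 0.13 in A0 and 0.49 ± 0.14 in A1 (adjusted p = 0.025 and 0.027). In A0, Atf1 was 0.44 ± 0.15 higher (adjusted p = 0.038) and Crtc1 0.52 ± 0.18 lower (adjusted p = 0.041). In A0 the Atf1 call was lost without any 1 of the A0 cultures or CHO-S culture 3 (adjusted p from 0.066 to 0.094), and that of Crtc1 without any 1 culture other than CHO-S culture 1 (-0.53 to -0.28, adjusted p from 0.086 to 0.37). The Crtc3 call was lost in A0 without A0 culture 1, 2 or 3 or CHO-S culture 3 (adjusted p from 0.057 to 0.087), and in A1 without any 1 culture other than CHO-S culture 1 (adjusted p from 0.062 to 0.11). Without the shallow culture 6 of 7 genes were called in A0, against 51.8% of 18990, and 5 of 7 in A1, against 57.4% of 18204. Creb1 then had a log2 difference of 0.60 ± 0.14 in A0 (adjusted p = 0.0039) and 0.52 ± 0.080 in A1 (adjusted p = 2.2e-08), where with it the values were 0.22 ± 0.26 and 0.17 ± 0.27. Crem was then called in A0 (0.52 ± 0.19, adjusted p = 0.036), and Crtc1 (-0.61 ± 0.090, adjusted p = 6.1e-09) and Ep300 (0.23 ± 0.068, adjusted p = 0.0026) in A1.

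**Figure D3:**
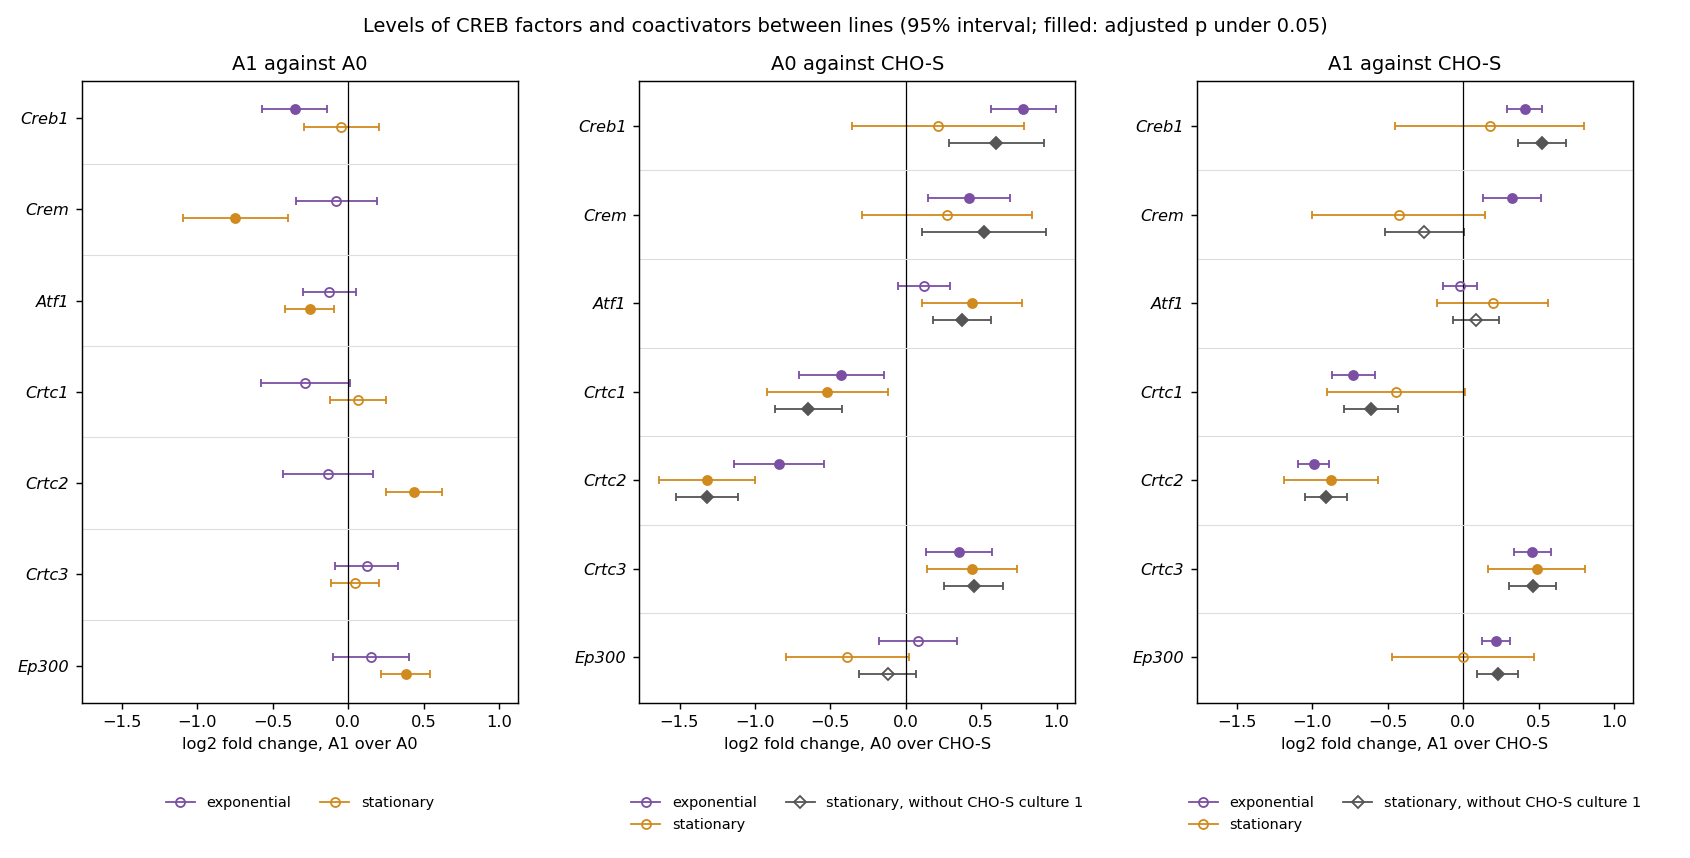
Log2 differences in level of the 7 genes between lines, with 95% intervals, for A1 over A0, A0 over CHO-S and A1 over CHO-S at exponential and stationary phase, and without CHO-S stationary culture 1 where it enters. Filled symbols have an adjusted p under 0.05. Crtc1 and Crtc2 lay below 0 against CHO-S in both producing lines, and the A1 over A0 calls are of Creb1 at exponential phase and of Crem, Atf1, Crtc2 and Ep300 at stationary phase.

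Ordered by mean level, Creb1 ran from A0 at exponential phase (101 CPM) down through A0 stationary (84.4), A1 stationary (82.5), A1 exponential (78.9) and CHO-S stationary (75.1) to CHO-S exponential (59.2). Each group overlapped its neighbour in this order, the CHO-S stationary group through the shallow culture alone, without which its mean was 56.3 CPM, below CHO-S exponential. The highest group mean was 1.70 times the lowest for Creb1, 1.73 times for Crem, 1.42 times for Atf1, 1.71 times for Crtc1, 3.17 times for Crtc2, 1.57 times for Crtc3 and 1.39 times for Ep300. Without the shallow culture it was 1.79 times for Creb1, 1.30 times for Atf1 and 1.98 times for Crtc1, with the others as given. Crtc2 was thus the gene whose level varied most, and the order of its groups was CHO-S exponential, CHO-S stationary, A0 exponential, A1 exponential, A1 stationary and A0 stationary. In that order A0 exponential and A1 exponential were the single pair of neighbours whose cultures overlapped. Libraries with the same A0 exponential culture number gave levels of the 7 genes within 0.79 and 1.24 times each other. The extremes were Ep300 in culture 1 and Crtc1 in culture 2, both from libraries titled RLT.

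The genes whose pattern was most like that of Creb1 were found by the root mean square difference of centred log2 CPM over the 20 cultures, among 10581 genes with at least 5 CPM on average. Among the closest were Nsun6 (0.13), an RNA methyltransferase, Sos1 (0.14), an exchange factor of Ras, Eif4e2 (0.15), a cap-binding protein, and Prkd3 (0.16), a protein kinase D. The median over all genes compared was 0.53, and a line without any change would have scored 0.32. Nsun6, for example, went from 32.7 CPM on average in A0 to 23.8 in A1 and 17.5 in CHO-S at exponential phase, as Creb1 did from 101 to 78.9 and 59.2. The cultures share their libraries and depth, so the likeness is a description.

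The wider pathway was described by lists of genes around CREB, some of which (Pde4b, Pde4d, Sik1 and Cited2) stand in a pair of lists. The first list joins subunits of protein kinase A, the main CREB kinase, with inhibitors of it. Of its 8 genes tested, 5 were lower and 2 higher at stationary phase in A0, where 20.1% of all genes were lower and 17.7% higher. Their median log2 change was -0.31 against 0.0013 over all genes. Prkaca, the catalytic subunit alpha, fell from 92.5 ± 3.83 CPM (SD, n = 4) to 58.5 ± 1.93, a log2 change of -0.67 (adjusted p = 1.4e-05 from edgeR), and Prkar2b, a regulatory subunit, by 0.94 (adjusted p = 8.0e-06). Pkia, an inhibitor of the kinase, rose from 3.997 ± 0.953 to 8.94 ± 1.57 CPM, a log2 change of 1.15 (adjusted p = 0.00016). In A1 3 of 8 were lower and 3 higher, against 17.8% and 15.6% of all genes, with Prkaca at -0.34 (adjusted p = 0.00019), Prkar2b at -0.48 (adjusted p = 2.6e-07), Prkar1a, another regulatory subunit, at -0.30 (adjusted p = 3.6e-05) and Pkia at 0.54 (adjusted p = 0.012). The interaction called 0 of these 8 genes different between A1 and A0 with edgeR, where 8.94% of all genes were, and 2 with the culture number as a block, where 16.4% were. In CHO-S 0 of 8 were called between phases, against 13.3%. The response of 3 of 8 was lower in A0 than in CHO-S, where 10.3% of all genes differed. Without the shallow culture 4 of 8 were lower in A0, against 17.2%, and 4 lower and 1 higher in A1, against 25.4%.

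Upstream of the kinase, cAMP is made by adenylyl cyclases and broken down by phosphodiesterases, and 4 of 17 such genes were higher and 2 lower at stationary phase in A0, and 4 and 0 of 15 in A1, so that 6 of 17 and 4 of 15 were called where 37.7% and 33.4% of all genes were. Adcy7, an adenylyl cyclase, rose by 0.82 on the log2 scale in A0 and 0.67 in A1 (adjusted p = 4.2e-06 and 8.8e-10 from edgeR). Pde4b, a phosphodiesterase that is also a CREB target, rose by 1.17 and 0.52 (adjusted p = 8.4e-06 and 0.00033), and Pde4a fell in A0 by 0.65 (adjusted p = 0.0014). At exponential phase Adcy7 and Pde4b were lower in A1 than in A0, at 77.0 against 117 CPM and 30.3 against 47.6 CPM on average (adjusted p = 0.00027 and 0.0058), and Gnas, the stimulatory G protein, was higher, with a log2 difference of 0.42 (adjusted p = 0.0025). In all, 1 of 18 genes of this list was higher and 4 lower in A1, where 25.9% of all genes were called.

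Of 16 other CREB kinases and phosphatases 1 was higher and 7 lower at stationary phase in A0, and likewise 1 and 7 in A1, where 17.7% and 20.1% of all genes were in A0 and 15.6% and 17.8% in A1. Both the CREB phosphatase subunit gene Ppp1cc and the ribosomal S6 kinase gene Rps6ka1 fell, Ppp1cc by 0.96 in A0 and 0.46 in A1 (adjusted p = 8.9e-07 and 1.9e-07 from edgeR) and Rps6ka1 by 0.55 and 0.50 (adjusted p = 0.00013 and 4.9e-07). The Ppp1cc response differed between A1 and A0, by 0.47 (adjusted p = 0.013). A1 had 1 higher and 6 lower of the 16 against A0 at exponential phase, where 25.9% of all genes were called. Among the lower was Camk1, a calcium and calmodulin dependent kinase, with 21.3 ± 1.76 CPM against 45.4 ± 1.42 (log2 difference -1.10, adjusted p = 2.0e-06).

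Of 8 kinases and phosphatases of CRTC proteins 2 were lower in A0 at stationary phase and 0 higher, and 4 were lower and 1 higher in A1, where 37.7% of all genes were called in A0 and 33.4% in A1. Sik2, a salt-inducible kinase, fell by 0.58 in A0 and 0.26 in A1 (adjusted p = 0.00043 and 0.0076 from edgeR), and Stk11, the kinase that activates SIKs, by 0.41 and 0.22 (adjusted p = 0.0017 and 0.0055). Sik3 rose in A1 by 0.36 (adjusted p = 5.3e-06). The calcineurin subunit gene Ppp3cb was lower in A1 than in A0 at both phases, with log2 differences of -0.74 and -0.94 (adjusted p = 0.00017 and 9.0e-06), and was the 1 gene of the list called at exponential phase, against 25.9% of all genes.

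Among 11 other CREB-named and related bZIP factors 2 were higher and 0 lower in A0 at stationary phase. In A1 there were 6 and 0, and 37.7% of all genes were called in A0 and 33.4% in A1. Crebrf, a regulator of CREB3, rose from 6.14 ± 0.487 to 16.9 ± 0.396 CPM in A0 and from 8.63 ± 0.599 to 20.6 ± 1.23 CPM in A1, log2 changes of 1.45 and 1.27 (adjusted p = 2.0e-07 and 4.1e-10 from edgeR). Creb3, an endoplasmic reticulum bound factor, was higher in A1 than in A0 at exponential phase, 18.8 ± 1.76 CPM against 11.1 ± 0.778 (log2 difference 0.75, adjusted p = 0.00036). Crebzf was higher as well, by 0.38 (adjusted p = 0.011). In this comparison 3 of the 11 were higher in A1 and 2 lower, where 25.9% of all genes were called. Creb5 had 43.6 ± 19.4 CPM in A0 and 28.2 ± 2.82 in A1 and no count in any CHO-S culture.

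Of 11 partners of CREB, CBP and p300, 1 was higher and 4 lower at stationary phase in A0, and 1 and 3 in A1, where 37.7% and 33.4% of all genes were called. Kat2a, another histone acetyltransferase, fell by 0.48 and 0.53 (adjusted p = 0.0016 and 4.8e-07 from edgeR), Nono, a CRTC partner, by 0.50 and 0.25 (adjusted p = 0.00036 in both), and Taf4b, a subunit of TFIID, rose by 0.49 and 0.31 (adjusted p = 0.0011 and 0.030). Cited2, which binds p300 and CBP, fell in A0 alone of the 2 lines, by 1.11 (adjusted p = 5.6e-05), with 0.00037 in A1, and the interaction was 1.06 (adjusted p = 0.0031).

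CREB target genes moved both ways. Of 27 tested, 11 were higher and 8 lower at stationary phase in A0, where 17.7% and 20.1% of all genes were, while A1 had 11 higher and 4 lower, against 15.6% and 17.8%. For CHO-S 10 were higher and 3 lower, against 6.81% and 6.48%, and 16 and 4 without the shallow culture, against 23.1% and 24.7%. Atf3, a stress-induced bZIP factor, rose from 5.05 ± 0.668 to 39.3 ± 6.90 CPM in A0 (log2 change 2.94, adjusted p = 1.3e-09 from edgeR), by 2.10 in A1 (adjusted p = 4.4e-13) and by 2.53 in CHO-S (adjusted p = 0.0015), or 2.52 without the shallow culture. Gem, a small GTPase, rose by 1.51, 1.38 and 2.67 (adjusted p = 3.1e-08, 2.1e-12 and 0.0029), with 2.74 in CHO-S without the shallow culture. The targets that fell in A0 and A1 include genes of proliferation. Pcna, the replication clamp, fell by 2.05 in A0 and 1.09 in A1 (adjusted p = 4.5e-08 and 2.3e-15), and Ccnd1, cyclin D1, by 1.28 and 0.80 (adjusted p = 4.7e-08 and 3.2e-12). At exponential phase 2 of the 27 targets were higher in A1 than in A0 and 5 lower, where 25.9% of all genes were called, and at stationary phase 7 were higher and 5 lower, against 33.7%. The median log2 difference of the targets was -0.039 at exponential phase, as it was over all genes.

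**Figure D4:**
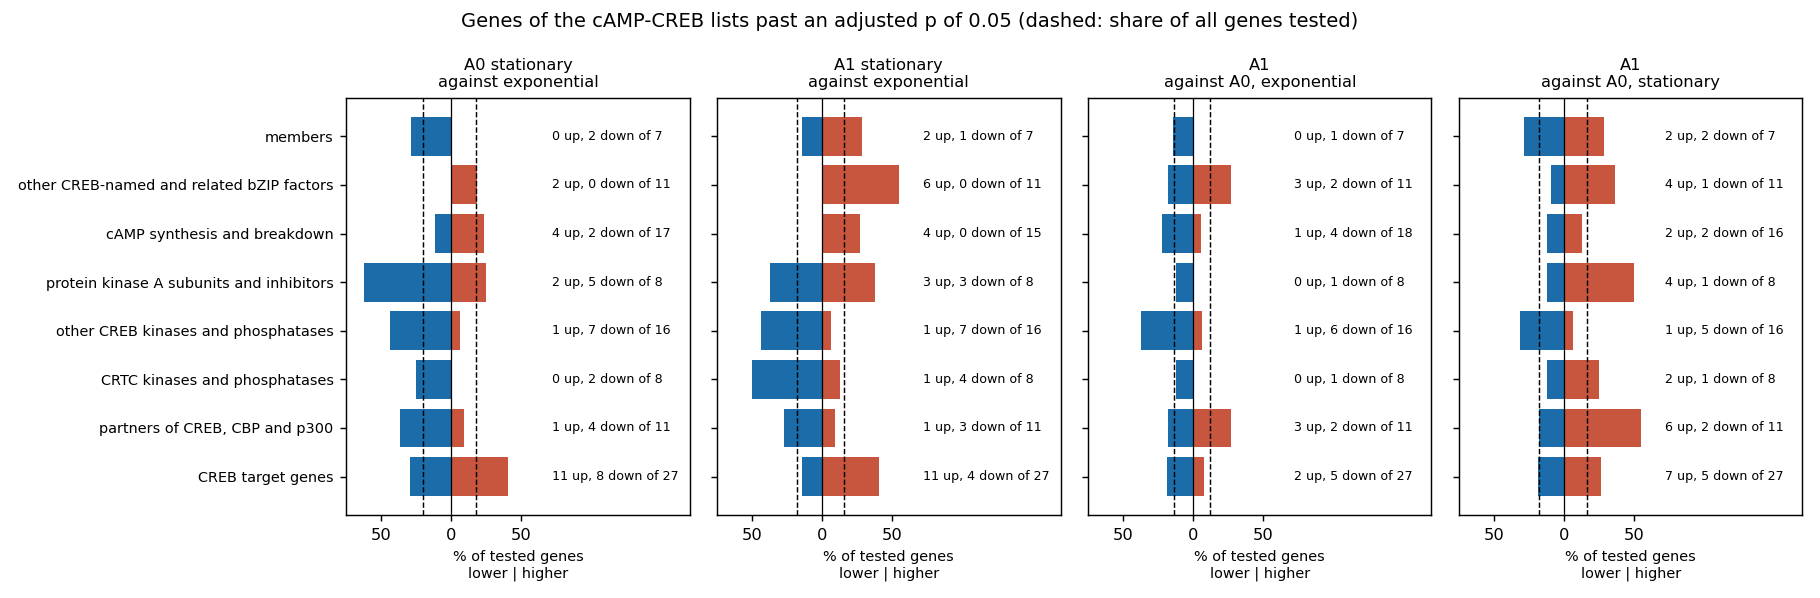
Share of the tested genes of each list called lower (left, blue) or higher (right, red) with an adjusted p under 0.05 in A0 and A1 between phases and in A1 against A0 at each phase, with the numbers beside the bars. Dashed lines give the share of all genes tested. The list of protein kinase A subunits and inhibitors has 5 of 8 genes lower in A0 at stationary phase, and the target genes have 11 of 27 higher in A0 and in A1.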

How the data were processed

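Total RNA of suspension batch cultures was sequenced from stranded mRNA libraries. Per the labels and the methods of the study, the authors aligned reads to C_griseus_v1.0 with STAR 2.5.4b and counted them per gene with HTSeq 0.7.2, and deposited raw counts, not normalized. The strand setting was not given in the sources used here. The 5 summary lines of the count table were left out, of which reads on no gene took 11.9% to 32.8% of a library. Counts were summed per culture and compared with edgeR 4.0.16 (quasi-likelihood test, TMM, R 4.3.3) among the groups of each comparison, for genes that reached 1 count in 2 or more cultures and had nonzero variance, with Benjamini-Hochberg adjustment over all genes tested. SE is the log2 change over the square root of F. CPM were TMM-normalized over the 20 cultures. Same-numbered A0 cultures deviated together between phases (Pearson's r over genes 0.19 to 0.42 in 4 pairs), so that a fit with the number as a block is given beside A0 phase results. For exponential cultures 3 and 4 a stationary culture of another number had a higher r. It was 0.32 against 0.27 for culture 3 and 0.27 against 0.19 for culture 4, so the number may not pair these cultures. The number comes from the labels. Other comparisons had pairs under 0.1. Alternatives were DESeq2 1.42.0, its size factors in edgeR, filterByExpr, subsets of A0 cultures, a single library per A0 culture and leaving out each culture. Named were all members, the 5 genes most like Creb1 and up to 4 genes a list, by adjusted p between phases or between A1 and A0 at exponential phase. Some items that these rules name are not reported here. The members and lists were chosen with earlier results of these data known. P-values measure the spread between cultures of single lines, with the variance of each gene drawn by edgeR toward that of the other genes tested. This shared variance dominated, for example, in the block fit of A0 phases and between CHO-S phases without stationary culture 1. Small p-values there rest little on the gene's own spread. The code was tested on simulated data.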

Additional observations from a re-analysis of the deposited data

Results flagged for a closer look

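In the A0 exponential cultures the gap between Creb1 in culture 3, at 119 CPM, and the next culture, at 97.6 CPM, was 0.833 of the range of the group. In the A0 stationary cultures the gap between Ep300 in culture 1, at 131 CPM, and the next culture, at 149 CPM, was 0.944 of the range. Both exceeded Dixon's 95% critical value for 4 samples, in 14 groups tested, of which chance flags 0.7 on average.

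The response to stationary phase differed between A1 and A0 for Crem by -0.67 and for Crtc2 by 0.57 on the log2 scale, in the test of the interaction of line and phase with edgeR (adjusted p = 0.048 and 0.047).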

How the results depend on the processing

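Of 84 member differences 29 were called, all 29 kept their direction in every setting and 15 stayed past the threshold in each. The numbers of the 7 genes called with 1 culture left out were 1 to 2 (A0 phases), 1 to 4 (A1 phases), 0 to 5 (CHO-S phases), 0 to 3 (A1 against A0, exponential), 3 to 4 (stationary), 3 to 5 and 6 (A0 and A1 against CHO-S, exponential), 1 to 6 and 1 to 5 (stationary), and 0 to 3, 0 to 1 and 0 to 1 for the interactions. The replicate block gave 5 for A0 phases, 3 for A1 against A0 at exponential phase, and 1 for A0 and 1 for A1 against CHO-S at stationary phase. There the numbers do not pair the samples. DESeq2 called 1 in CHO-S between phases. A0 cultures 1 and 2 alone gave 4 for A1 against A0 at exponential phase, 1 for A0 against CHO-S at stationary phase and 4 for the interaction of A1 and A0, A0 cultures 3 and 4 alone gave 1 for A0 against CHO-S at stationary phase, and filterByExpr gave 0 for that interaction. The cause was not tested. Signs turned for uncalled differences. With A0 cultures 1 and 2 alone these were Crtc1 between A0 phases (-0.12), Crem at exponential phase (0.10) and Creb1 and Crtc3 at stationary phase (0.16 and -0.00083) in A1 against A0, and Ep300 at exponential phase (-0.14) and Crem at stationary phase (-0.012) in A0 against CHO-S. With A0 cultures 3 and 4 alone they were Atf1 between A0 phases (0.073), Crtc2 and Ep300 in A1 against A0 at exponential phase (0.016 and -0.041), and Crem and Crtc1 in the interaction of A0 and CHO-S (0.011 and 0.068). With the replicate block they were Creb1 in A1 against A0 (0.031) and Ep300 in A1 against CHO-S (0.024), both at stationary phase. With 1 culture left out, the ranges across 0 were -0.083 to 0.11 for Crtc1 between A0 phases, -0.071 to 0.47, -0.11 to 0.24 and -0.059 to 0.28 for Creb1, Ep300 and Crtc1 between CHO-S phases, -0.041 to 0.16 for Ep300 in A0 and -0.056 to 0.023 for Atf1 in A1 against CHO-S at exponential phase, -0.15 to 0.027 for Creb1 in A1 against A0 at stationary phase, -0.15 to 0.23 and -0.032 to 0.52 for Ep300 and Creb1 in A1 against CHO-S at stationary phase, -0.26 to 0.13 and -0.25 to 0.11 for Crem and Crtc1 in the interaction of A0 and CHO-S, and -0.30 to 0.13 and -0.28 to 0.032 for Creb1 and Ep300 in that of A1 and CHO-S. Over all genes, calls between CHO-S phases went from 2308 to 0 without exponential culture 2, 350 with the replicate block and 8269 without stationary culture 1. They went from 5163 to 3160 for A1 against A0 at exponential phase without A1 culture 3, from 7606 to 5043 for A0 against CHO-S at stationary phase with the block, from 6345 to between 4051 and 10451 for A1 against CHO-S at stationary phase, and from 1873 to between 1003 and 4588, 2159 to between 1095 and 3586 and 1495 to between 518 and 4990 for the interactions of A1 and A0, A0 and CHO-S, and A1 and CHO-S. DESeq2 moved the median log2 value of all genes from -0.032 to -0.15 in the interaction of A0 and CHO-S and from 0.028 to -0.11 in that of A1 and CHO-S. Depth limits CHO-S stationary culture 1, where the 7 genes had 31 to 241 counts.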
